A study of Mus musculus with 32 samples.

Results

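DN2 thymocytes from the mouse thymus at embryonic day E19.5 were compared with DN1 cells of the same stage that were positive for both BCL11b and ID2, in 3 libraries each, across 13840 of the 26244 genes in the deposited table. These 13840 genes had a value of 10 or more in at least 3 of the 18 libraries of that stage. Both groups came from the strain that the labels call 5x polychromILC mice, and the labels give no further genotype, no treatment and no embryo numbers. DN2 cells are labelled by that name alone, and the 6 libraries belong to a set of 32 bulk RNA-seq libraries from the E15.5 and E19.5 thymus. Replicates carry the numbers 1, 2 and 4 in both groups, and values below follow that order. Nothing in the labels states that the libraries came from separate embryos, so p-values measure only how these libraries vary, and that variation may be technical.

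Thymocytes that lack CD4 and CD8 pass through stages called DN1 to DN4, and at DN2 they carry CD25 (Il2ra), KIT and CD44 and begin T-lineage gene expression under Notch signals. BCL11b is a zinc-finger factor that T-cell precursors switch on at commitment, and group 2 innate lymphoid cells (ILC2) use it too. ID2 binds the E proteins, which drive T-cell genes such as those for the pre-T-cell receptor, and it keeps them off DNA in innate lymphoid cells. The comparison sets T-lineage cells beside DN1 cells gated on both factors.

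The sorting genes followed the labels. Bcl11b had normalised values of 495, 1126 and 454 in DN2 libraries, against 409, 539 and 596 in BCL11b+ID2+ libraries, and the groups overlapped. Id2 had values of 1.41, 22.6 and 20.3 in DN2 libraries, against 961, 1174 and 1221 in BCL11b+ID2+ libraries, with each DN2 library far below each BCL11b+ID2+ library. Both genes defined the gate of the BCL11b+ID2+ cells and are given as a description. Of the DN2 surface genes, Il2ra had values of 7149, 8762 and 7563 in DN2 libraries, against 2626, 2259 and 2038 in BCL11b+ID2+ libraries. Kit had values of 801, 604 and 679 in DN2 libraries, against 1216, 1135 and 1251 in BCL11b+ID2+ libraries. Cd44 had values of 414, 298 and 291 in DN2 libraries, against 2361, 2499.6 and 1794 in BCL11b+ID2+ libraries, so Il2ra was higher and both Kit and Cd44 were lower in each DN2 library than in any BCL11b+ID2+ library. The labels do not say how DN2 cells were gated, so these surface genes may have been part of the sort. The libraries held 3517780 to 7173288 reads in DN2 and 3111749 to 9178293 in BCL11b+ID2+, of which the 2 mitochondrial ribosomal RNAs took 38.8% to 47.0% in DN2 and 42.1% to 58.8% in BCL11b+ID2+. Genes detected numbered 15383 to 16820 in DN2 libraries and 15982 to 16535 in BCL11b+ID2+ libraries.

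DN2 cells differed widely from the BCL11b+ID2+ cells. In a limma fit over all 6 populations of the stage, 2643 of 13840 genes (19.1%) passed an adjusted p of 0.05, of which 1024 (7.4%) were higher in DN2 and 1619 (11.7%) were lower. The groups did not overlap for 34.3% of tested genes, with DN2 above for 15.8% and below for 18.5%. The median log2 difference of all tested genes was 0.00. Differences above 5 on the log2 scale were seen for 76 of the genes higher in DN2 and 222 of those lower. The filter let in 3 genes through DN2 libraries alone and 30 through BCL11b+ID2+ libraries alone, and 2 and 29 of them passed the test. Calca, Pard3 and Nmur1, named below, averaged at most 3.58, 4.18 and 0.482 in any population other than BCL11b+ID2+. They passed the filter only through BCL11b+ID2+ libraries, which fixed the direction of their difference in advance. Il4, Pxdc1 and Tnfrsf19, also named below, averaged at most 5.77, 8.17 and 4.88 in any population other than BCL11b+ID2+. Without their BCL11b+ID2+ libraries they would not have met the filter, so their direction was fixed in advance as well. Further genes at low levels elsewhere may share this limit. The plot of difference against level shows the split.

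**Figure D1:**
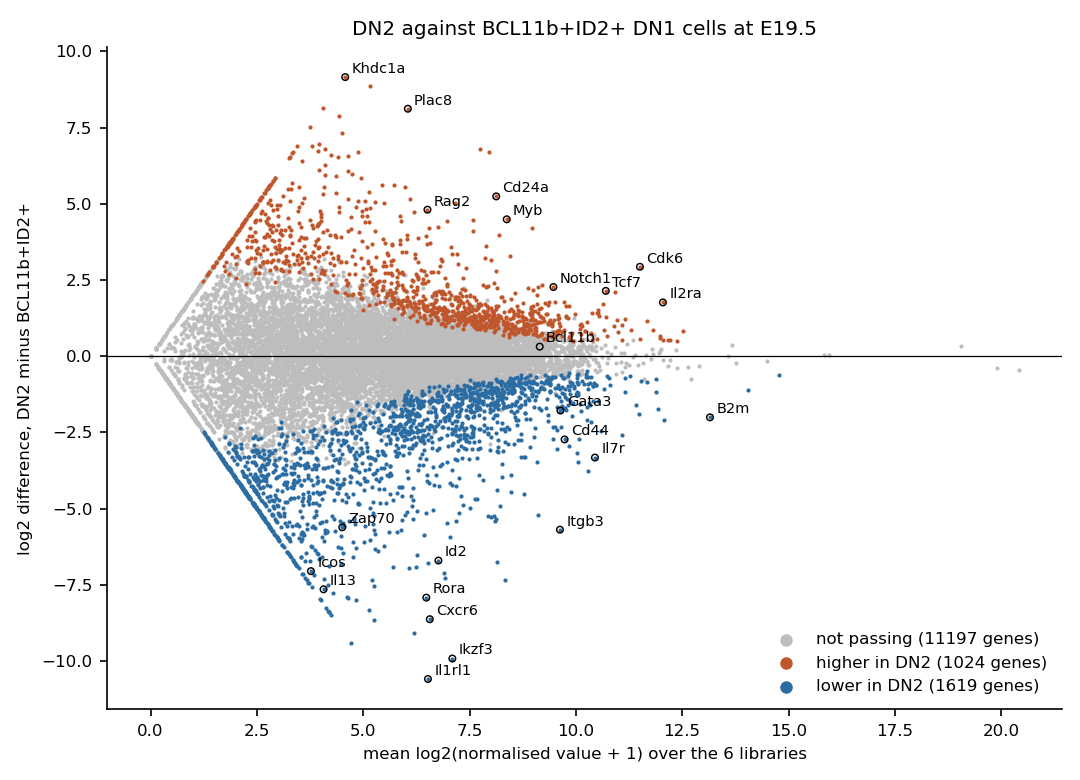
Log2 difference between DN2 and BCL11b+ID2+ cells (vertical axis) against the mean log2(normalised value + 1) over the 6 libraries (horizontal axis), 1 point for each of 13840 genes. Orange points (1024) are higher in DN2 and blue points (1619) are lower at an adjusted p under 0.05, and circled genes are named in the text, with Bcl11b and Id2 as sorting genes.

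Markers of macrophages moved with the comparison. The summed level of that list was 33.9 to 76.6 in DN2 and 656 to 1836 in BCL11b+ID2+, and 9 of its 10 tested genes were lower in DN2. Csf1r, the receptor for macrophage colony-stimulating factor, had values of 0, 1.33 and 0 in DN2 libraries, against 217, 92.9 and 128 in BCL11b+ID2+ libraries. The mannose receptor gene Mrc1 and the gene for F4/80, Adgre1, had no reads in any DN2 library, against 285, 109 and 222 for Mrc1 and 114, 45.3 and 53.4 for Adgre1 in BCL11b+ID2+ libraries. The sum of the list was highest in BCL11b+ID2+ replicate 1. Macrophages also express Maf and Tlr1, which are named below. In bulk libraries fewer cells of a type and less RNA per cell cannot be told apart, and the part of these markers in the results below was not tested.

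The genes with the largest rise in DN2 were at low levels in the BCL11b+ID2+ cells. Khdc1a (chr1:21349641-21352200, GRCm38, plus strand), a member of the KHDC1 family of KH-domain genes, had values of 479, 589 and 654 in DN2 libraries, against 0, 0 and 0 in BCL11b+ID2+ libraries. It was at least 486-fold higher in DN2, a log2 difference of 9.16 ± 0.92 (SE) at an adjusted p of 1.45e-07. KHDC1 genes are near-identical copies, so the split of reads between them is uncertain. Tspan2 (chr3:102734529-102801513, plus strand), which encodes a tetraspanin, had values of 872, 685 and 789 in DN2 libraries, against 3.56, 0 and 0 in BCL11b+ID2+ libraries and was 659-fold (95% counting interval 182 to 5443) higher. Plac8, a small cysteine-rich protein gene of haematopoietic cells, had values of 895, 726 and 2071 in DN2 libraries, against 3.56, 2.21 and 3.3 in BCL11b+ID2+ libraries and was 407-fold higher. Of these 3 genes, only Khdc1a had no read in any BCL11b+ID2+ library.

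Adgrg1 (chr8:94974751-95014217, plus strand) encodes the adhesion receptor GPR56. Its values were 2526, 2262 and 2043 in DN2 libraries, against 19.6, 32.1 and 11.2 in BCL11b+ID2+ libraries, a 109-fold rise in DN2 at an adjusted p of 5.65e-07. All 3 DN2 libraries stood far above the others. A further 10 of the 15 genes with the largest rise were the secreted proteoglycan gene Esm1, the claudin gene Cldn2, the receptor tyrosine kinase gene Ephb2, the serine protease gene Prss57, the fatty acid desaturase gene Fads2, Bpifc, the nuclear receptor gene Hnf4a and the regulators Erg, Lyl1 and Notch3, with log2 differences of 6.68 to 8.13.

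The genes with the largest fall were led by the interleukin-33 receptor. Il1rl1 (chr1:40429570-40465415, plus strand), which encodes ST2 and marks ILC2, had values of 4.24, 0 and 1.45 in DN2 libraries, against 3187, 3755 and 3931 in BCL11b+ID2+ libraries. It was 1909.6-fold lower in DN2, a log2 difference of -10.59 ± 0.70 (SE) at an adjusted p of 1.36e-10. Ikzf3 (chr11:98464902-98546031, minus strand), the gene for the zinc-finger factor Aiolos, had values of 2.83, 5.99 and 2.18 in DN2 libraries, against 5808, 4129 and 3219.6 in BCL11b+ID2+ libraries and was 1196-fold lower. The groups did not overlap for either gene.

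Hlf (chr11:90336536-90390895, minus strand), which encodes a bZIP factor known from blood stem cells, had values of 2.83, 0 and 7.27 in DN2 libraries, against 1684, 1989.9 and 1479 in BCL11b+ID2+ libraries and was 510.5-fold lower. Cxcr6 (chr9:123806475-123811760, plus strand), the receptor for CXCL16, had values of 1.41, 8.66 and 3.63 in DN2 libraries, against 1451, 1857 and 2483 in BCL11b+ID2+ libraries and was 423-fold lower. Calca, which encodes the neuropeptide CGRP, had values of 0, 0 and 0 in DN2 libraries, against 867, 196 and 274 in BCL11b+ID2+ libraries and was at least 476-fold lower. The other 10 were the protease gene Mmp25, the scavenger receptor gene Stab2, the polarity gene Pard3, Pxdc1, the chemokine receptor genes Ccr6 and Ccr8, the Notch ligand gene Jag1, the ubiquitin ligase gene Rnf128, the toll-like receptor gene Tlr1 and the TNF receptor family gene Tnfrsf19, with log2 differences of -9.42 to -7.98. The 30 genes ranked in both directions passed under every alternative setting tried. Their separation, shown in the plot of these genes by library, was required by the naming rule and is a description.

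**Figure D2:**
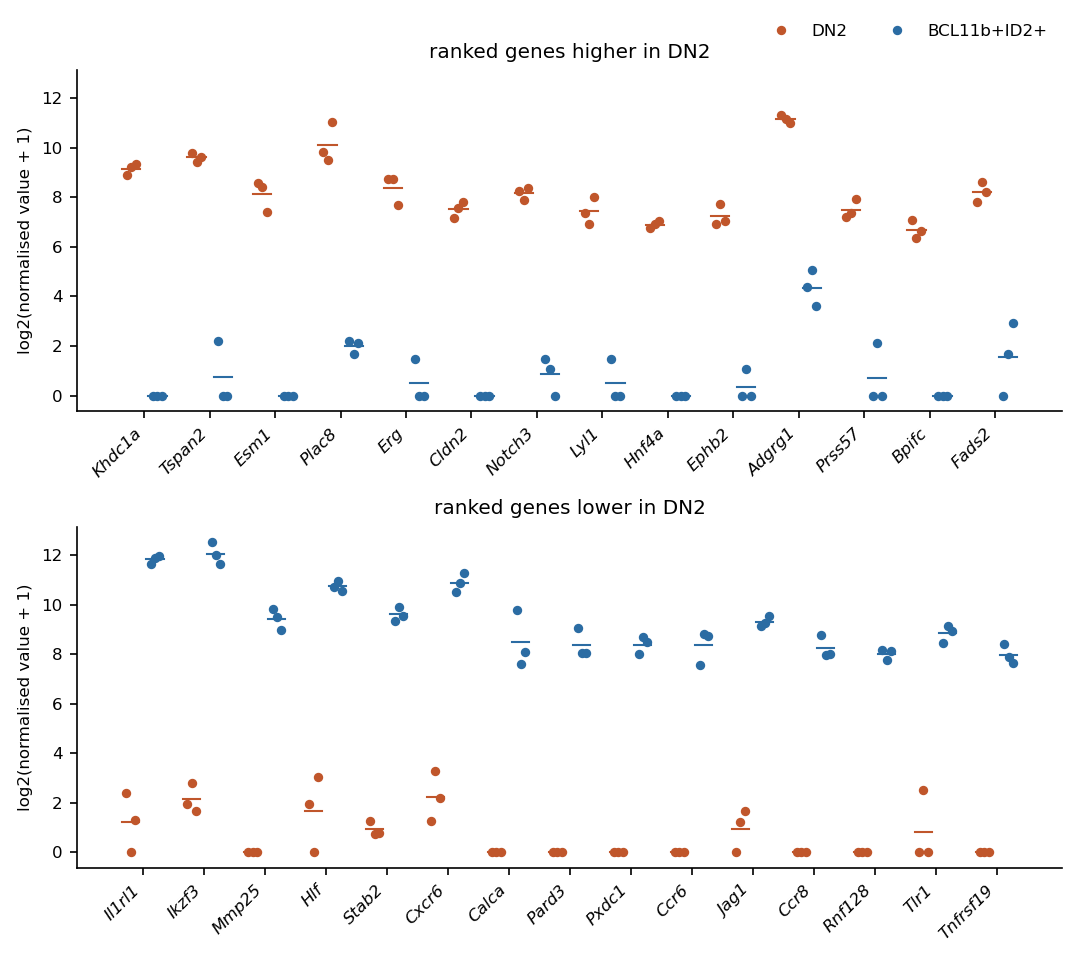
Log2(normalised value + 1) in each library for 14 of the 15 genes with the largest rise (top) and the 15 with the largest fall (bottom) among genes that met the naming rule, with DN2 (orange) left of BCL11b+ID2+ (blue). Points are libraries and lines are means of 3, and for each gene all libraries of the higher group lie above all of the other.

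Genes of receptor gene recombination were mostly higher in DN2. Of 6 tested genes, 4 were higher and 0 lower, with a median log2 difference of 2.05. Rag2, a subunit of the recombinase that joins receptor gene segments, had values of 558, 521 and 384 in DN2 libraries, against 19.6, 13.3 and 16.5 in BCL11b+ID2+ libraries and was 29.7-fold higher at an adjusted p of 5.63e-05. Its partner Rag1 had values of 664, 1162 and 405 in DN2 libraries, against 194, 222 and 304 in BCL11b+ID2+ libraries and was 3.1-fold higher at an adjusted p of 0.00637, a call that was lost without DN2 replicate 2 (adjusted p = 0.064). Arpp21, a phosphoprotein gene of immature thymocytes, was 18-fold higher, and the DNA repair gene Xrcc6 (Ku70) was 5.94-fold higher. The terminal transferase gene Dntt was near 0 throughout, with values of 1.41, 7.99 and 0 in DN2 libraries, against 3.56, 2.21 and 15.2 in BCL11b+ID2+ libraries. Rag1 and Rag2 lie next to each other, and whether counting used strand is not given in the labels.

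Of 8 tested constant-region genes, 5 were higher and 1 lower in DN2. Both T-cell receptor beta constants rose, Trbc1 2.38-fold and Trbc2 2.65-fold, and their near-identical sequences leave the split between them uncertain. Tcrg-C2, a gamma constant, had values of 1990.1, 2208 and 2281 in DN2 libraries, against 157, 103 and 99.6 in BCL11b+ID2+ libraries and was 18-fold higher, with Tcrg-C1 2.08-fold higher and Tcrg-C3 304-fold (95% counting interval 54.2 to 12034) higher. Tcrg-C4 went the other way, with values of 18.4, 131 and 135 in DN2 libraries, against 527, 357 and 409 in BCL11b+ID2+ libraries, 4.54-fold lower. The gamma constants are also close copies, so their reads may be shared. The delta constant Trdc averaged 465 ± 79.5 in DN2 and 337 ± 65.3 in BCL11b+ID2+ (SD, n = 3 each) and did not pass (adjusted p = 0.259), and the alpha constant Trac stayed low, with values of 0, 5.99 and 13.1 in DN2 libraries, against 35.6, 37.6 and 11.9 in BCL11b+ID2+ libraries.

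Ptcra encodes the invariant pre-T-cell receptor alpha chain that pairs with a new beta chain. It had values of 32.5, 137 and 18.9 in DN2 libraries, against 0, 6.63 and 0 in BCL11b+ID2+ libraries, with DN2 replicate 2 highest and no overlap between groups. The rise was 28.3-fold (adjusted p = 0.0087), and it did not pass without DN2 replicate 2 (adjusted p = 0.063) or in edgeR (adjusted p = 0.066). Ptcra averaged at most 5.38 in any other population and would not have met the filter without its DN2 libraries. The direction of its difference was therefore fixed in advance. The 250 bases before the start of Ptcra (chr17:46763713-46763962, minus strand) and of Rag1 (chr2:101649533-101649782, minus strand) were picked for printing because they hold the letters CAGCTG, which E proteins, the partners of ID2, can bind. Sequences are from RefSeq on GRCm38.p6, 5′ to 3′, with CAGCTG in capitals. This motif is its own reverse complement, so both strands are read at once.
Ptcra promoter: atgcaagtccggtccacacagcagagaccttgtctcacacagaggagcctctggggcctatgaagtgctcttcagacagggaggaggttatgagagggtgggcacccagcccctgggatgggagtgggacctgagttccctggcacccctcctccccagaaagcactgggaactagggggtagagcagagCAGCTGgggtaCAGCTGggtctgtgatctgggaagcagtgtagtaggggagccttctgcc
Rag1 promoter: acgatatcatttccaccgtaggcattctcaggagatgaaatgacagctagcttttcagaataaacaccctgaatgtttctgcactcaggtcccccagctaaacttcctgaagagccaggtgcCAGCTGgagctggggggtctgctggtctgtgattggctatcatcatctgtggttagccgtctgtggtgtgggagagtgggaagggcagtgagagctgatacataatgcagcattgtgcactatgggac
Ptcra holds the motif at positions -60 and -49 from the start and Rag1 at -128. Of the 13840 tested genes 9262 had a window. Among windows of the same length, 14.7% of all 27025 genes with a window held it, as did 13.8% of tested genes, 14.4% of genes higher in DN2 and 16.6% of genes lower in DN2. It was found for 3 of 6 recombination genes (50.0%) and 0 of the 17 ILC2 surface genes that have a window.

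Genes of the CD3 complex and the signalling around it went both ways. Of 22 tested genes, 4 were higher and 11 lower, with a median log2 difference of -0.28. Cd3e had values of 1002, 2014 and 896 in DN2 libraries, against 1018, 1044 and 945 in BCL11b+ID2+ libraries, with an adjusted p of 0.558, and neither Cd3g (adjusted p = 0.168) nor Cd3d (0.788) passed. The kinase gene Lck had values of 961, 1097 and 987 in DN2 libraries, against 198, 201 and 243 in BCL11b+ID2+ libraries and was 4.74-fold higher in DN2. Trat1, an adaptor of the receptor complex, was 15.8-fold higher, and Themis, a regulator of thymocyte signalling, was 3.62-fold higher.

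The kinase gene Zap70, which acts just after the receptor, was among the genes that fell. Its values were 2.83, 2.66 and 1.45 in DN2 libraries, against 210.1, 169 and 111 in BCL11b+ID2+ libraries, 70.7-fold lower in DN2 at an adjusted p of 1.65e-08. Txk, a TEC family kinase gene, was 14.7-fold lower, Ptpn22 7.63-fold lower, Rasgrp1 4.99-fold lower, Prkcq 3.71-fold lower, Sla 3.07-fold lower, Fyn 2.93-fold lower and Cd247, the CD3 zeta chain, 2.86-fold lower. Lcp2 was 1.75-fold lower, but its groups overlapped and the call was lost in 4 of the fits that left out 1 library.

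Among surface genes of thymocyte stages, 3 of 15 were higher and 6 lower in DN2. Cd24a, a glycoprotein of immature thymocytes, had values of 1404, 2172 and 1672 in DN2 libraries, against 46.3, 31 and 61.3 in BCL11b+ID2+ libraries and was 37.9-fold higher at an adjusted p of 9.28e-09. Ly6d was 73.4-fold higher and Il2ra 3.39-fold higher. Cd44, an adhesion receptor of DN1 and DN2 cells, was 6.63-fold lower in DN2, with values given above that did not overlap. Thy1 averaged 1329.9 ± 356 in DN2 and 1256 ± 199.6 in BCL11b+ID2+ (SD, n = 3 each) and Kit did not pass (adjusted p = 0.0522), although its DN2 values lay below the others. The coreceptor genes Cd4, Cd8a and Cd8b1 and the adhesion gene Cd2 were lower in DN2, although the Cd8b1 call was lost in 5 of the 6 fits without 1 library (adjusted p = 0.062 to 0.184) and in edgeR (0.096). Cd4 had values of 0, 11.3 and 1.45 in DN2 libraries, against 196, 61.9 and 131 in BCL11b+ID2+ libraries.

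The transcription factors of the T lineage did not move as a block. Of 19 tested, 6 were higher and 7 lower, with a median log2 difference of 0.04. Tcf7, which encodes TCF1, had values of 3751, 3897 and 2949.8 in DN2 libraries, against 936, 884 and 603 in BCL11b+ID2+ libraries and was 4.37-fold higher in DN2. Myb was 21.1-fold higher, with values of 1639.6, 1640.2 and 1449 in DN2 libraries, against 96.1, 90.7 and 37.6 in BCL11b+ID2+ libraries, and Runx1 was 2.63-fold higher. Sox4 was 5.44-fold higher and the Ets-family gene Spib 24.7-fold higher.

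Gata3, needed by both T cells and ILC2, was lower in DN2, with values of 554, 298 and 477 in DN2 libraries, against 1526, 1678 and 1258 in BCL11b+ID2+ libraries, a 3.36-fold fall at an adjusted p of 7.47e-06. Ets1 was 4.17-fold lower, Ets2 7.66-fold lower, Lef1 5.93-fold lower and Tox2 9.74-fold lower. Ikzf1, the gene for Ikaros, averaged 1601 ± 334 in DN2 and 1841 ± 117 in BCL11b+ID2+ (SD, n = 3 each), in contrast to its relative Ikzf3. Satb1 also gave no difference that passed (log2 difference 0.04 ± 0.24, SE). Of the E proteins, Tcf4 was 2.88-fold higher, Tcf12 1.61-fold higher, a call lost in 5 of the fits that left out 1 library, and Tcf3 did not pass, with values of 264, 334 and 276 in DN2 libraries, against 103, 205 and 189 in BCL11b+ID2+ libraries. Of 5 tested genes of the ID and E protein list, 3 were higher and 1 lower. The ID family gene Id3 was lower in DN2, with values of 1.41, 0 and 0 in DN2 libraries, against 32, 22.1 and 98.3 in BCL11b+ID2+ libraries.

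Notch1 and Notch3 rose in DN2, and Notch2 and the ligand gene Jag1 fell. Of 8 tested Notch genes, 2 were higher and 3 lower, with a median log2 difference of 0.36. Notch3 (chr17:32120820-32166852, minus strand), itself switched on by Notch signals in thymocytes, had values of 308, 236 and 328 in DN2 libraries, against 1.78, 1.11 and 0 in BCL11b+ID2+ libraries and was 302-fold (95% counting interval 83.4 to 2497) higher in DN2. Notch1, the receptor that instructs the T-cell fate, had values of 1391, 1715 and 1591 in DN2 libraries, against 438, 279.7 and 274 in BCL11b+ID2+ libraries and was 4.73-fold higher. The groups did not overlap for either receptor. Jag1 had values of 0, 1.33 and 2.18 in DN2 libraries, against 554, 608 and 738 in BCL11b+ID2+ libraries and was 541-fold lower, Notch2 was 3.98-fold lower and the fringe gene Lfng 3.9-fold lower. The Notch target Hes1 had values of 253, 189 and 188 in DN2 libraries, against 80.1, 106 and 90.3 in BCL11b+ID2+ libraries, apart between the groups, yet did not pass (adjusted p = 0.214), and neither did Dtx1, which had values of 14.1, 147 and 44.3 in DN2 libraries, against 10.7, 29.8 and 11.2 in BCL11b+ID2+ libraries.

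Regulators of haematopoietic progenitors were largely higher in DN2. Of 18 genes on the list 15 were tested, and 8 were higher and 1 lower, with a median log2 difference of 2.53. Erg, which encodes an Ets factor needed by blood stem cells, had values of 425, 426 and 205 in DN2 libraries, against 1.78, 0 and 0 in BCL11b+ID2+ libraries and was 593-fold (95% counting interval 106 to 23459.5) higher at an adjusted p of 1.92e-05. Lyl1, a bHLH factor, had values of 164, 122 and 258 in DN2 libraries, against 1.78, 0 and 0 in BCL11b+ID2+ libraries. Bcl11a was 8.69-fold higher, Lin28b, a fetal RNA-binding protein gene, 22.7-fold higher, Nfe2 21.6-fold higher and Gfi1b at least 20.2-fold higher. Mef2c was 5.56-fold higher, a call lost without DN2 replicate 1 (adjusted p = 0.073) or BCL11b+ID2+ replicate 2 (adjusted p = 0.092). Lmo4 was the gene that fell, with values of 110.2, 66.6 and 102 in DN2 libraries, against 1689.6, 1296 and 1169 in BCL11b+ID2+ libraries, and Spi1, the gene for PU.1, did not pass, with values of 168, 99.2 and 39.2 in DN2 libraries, against 62.3, 23.2 and 8.57 in BCL11b+ID2+ libraries.

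The regulators of innate lymphoid precursors and ILC2 were mostly lower in DN2. Of 16 tested, 12 were lower and 1, Tcf7, was higher, with a median log2 difference of -2.10. Rora (chr9:68653786-69388246, plus strand), a nuclear receptor required for ILC2, had values of 8.48, 3.33 and 3.63 in DN2 libraries, against 1446, 1456 and 1285 in BCL11b+ID2+ libraries and was 271-fold lower at an adjusted p of 2.14e-12. Maf had values of 28.3, 18 and 61.8 in DN2 libraries, against 1155, 1048 and 880.4 in BCL11b+ID2+ libraries and was 28.5-fold lower. For both genes every DN2 library was far below every BCL11b+ID2+ library.

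Zbtb7b, the gene for the zinc-finger factor ThPOK, had values of 0, 0.666 and 0 in DN2 libraries, against 48.1, 126 and 19.1 in BCL11b+ID2+ libraries and was 290.2-fold (95% counting interval 51.4 to 11527) lower. Ahr was 4.04-fold lower, Klf6 3.92-fold lower, Nfil3 10.2-fold lower and Bhlhe40 6.32-fold lower, and the last 2 calls were each lost in 2 of the fits without 1 library. Zbtb16, the gene for PLZF, had values of 50.9, 43.3 and 39.2 in DN2 libraries, against 244, 125 and 76.5 in BCL11b+ID2+ libraries, and its call (adjusted p = 0.0458) was lost in 5 of the 6 fits without 1 library. Tox was 2.54-fold lower with overlapping groups, and lost its call without BCL11b+ID2+ replicate 1 (adjusted p = 0.165), without DN2 replicate 4 (0.088) and in a fit of the compared groups alone (0.068). Pparg had values of 22.6, 72.6 and 41.4 in DN2 libraries, against 201, 334 and 200.5 in BCL11b+ID2+ libraries, and Batf and Gfi1 likewise did not pass.

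Surface and receptor genes of ILC2 were mostly lower in DN2. Of 22 genes, 19 were tested, and 15 were lower in DN2 and 1, Il2ra, was higher, with a median log2 difference of -5.31. Icos, a costimulatory receptor, had values of 0, 0.666 and 0 in DN2 libraries, against 112, 172 and 197 in BCL11b+ID2+ libraries and was 724-fold (95% counting interval 129 to 28632) lower. Ptgdr2, the prostaglandin D2 receptor CRTH2, had values of 0, 0 and 0 in DN2 libraries, against 196, 184 and 139 in BCL11b+ID2+ libraries. Klrg1 had values of 0, 0 and 0 in DN2 libraries, against 39.2, 44.2 and 33.6 in BCL11b+ID2+ libraries, and Nmur1, the neuromedin U receptor, 0, 0 and 0 in DN2 libraries, against 48.1, 101 and 50.8 in BCL11b+ID2+ libraries. None of the last 3 genes had a read in a DN2 library.

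Il18r1, the interleukin-18 receptor, had values of 11.3, 2.0 and 5.09 in DN2 libraries, against 865, 693 and 724 in BCL11b+ID2+ libraries and was 124-fold lower. Cysltr1, a cysteinyl leukotriene receptor, had values of 39.6, 65.3 and 87.2 in DN2 libraries, against 1068, 1297 and 1538 in BCL11b+ID2+ libraries and was 20.3-fold lower. Il17rb, the interleukin-25 receptor subunit, was among the 3 tested genes that did not pass. Its values were 144, 144 and 208 in DN2 libraries, against 703, 511 and 494 in BCL11b+ID2+ libraries, and although they did not overlap, the 3.44-fold difference did not pass (adjusted p = 0.0742). Crlf2, the receptor for TSLP, overlapped between the groups, with values of 12.7, 5.99 and 32.7 in DN2 libraries, against 69.4, 37.6 and 15.8 in BCL11b+ID2+ libraries.

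Effector genes of type 2 cells were close to silent in DN2. Of 14 genes, 6 were tested and 5 were lower, and 9 had no read in any DN2 library, against 4 with none in BCL11b+ID2+. The 5 became 4 in DESeq2 and without DN2 replicate 4 or BCL11b+ID2+ replicate 2 or 4. Among the 5, Tnfsf11 averaged 16.7 in DN2 and 61.8 in BCL11b+ID2+. Its call was lost in edgeR (adjusted p = 0.172) and DESeq2 (0.111), among other settings. Il4 and Calca, also among the 5, met the filter through BCL11b+ID2+ libraries, as given above. Il13 had values of 0, 0.666 and 0 in DN2 libraries, against 80.1, 398 and 414 in BCL11b+ID2+ libraries, with a single read in the DN2 libraries, a 1339-fold (95% counting interval 239.8 to 52933) difference. Arg1, arginase 1, had values of 0, 10.7 and 5.81 in DN2 libraries, against 285, 376 and 391 in BCL11b+ID2+ libraries and was 63.9-fold lower. Il4 had values of 0, 0 and 0 in DN2 libraries, against 21.4, 32.1 and 36.3 in BCL11b+ID2+ libraries, and Il5 had 0 in all but BCL11b+ID2+ replicate 4, where it stood at 9.23. Areg, which failed the filter, had values of 0, 0 and 0 in DN2 libraries, against 8.9, 68.5 and 33 in BCL11b+ID2+ libraries.

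The 250 bases before the start of Il1rl1 (chr1:40429320-40429569, plus strand) and of Il13 (chr11:53634703-53634952, minus strand) were likewise picked because they hold the letters AGATAA, which GATA factors such as GATA3 can bind. The motif was searched on both strands and is given in capitals. Il1rl1 has 2 windows in RefSeq, of which the one with the match is printed.
Il1rl1 promoter: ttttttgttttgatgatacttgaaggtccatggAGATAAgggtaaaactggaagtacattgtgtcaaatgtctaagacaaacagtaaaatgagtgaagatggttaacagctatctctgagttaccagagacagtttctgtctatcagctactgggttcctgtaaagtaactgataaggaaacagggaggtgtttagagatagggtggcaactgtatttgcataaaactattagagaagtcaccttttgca
Il13 promoter: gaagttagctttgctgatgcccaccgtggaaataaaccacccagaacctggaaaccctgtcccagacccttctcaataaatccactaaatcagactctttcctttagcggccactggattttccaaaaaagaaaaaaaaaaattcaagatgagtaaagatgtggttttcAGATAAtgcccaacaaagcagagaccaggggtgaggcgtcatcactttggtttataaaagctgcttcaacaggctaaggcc
Il1rl1 holds the motif at position -217 from the start and Il13 at -81. It was found for 11.4% of all genes with a window, 7.48% of tested genes, 9.76% of genes lower in DN2 and 7.98% of genes higher. Of the 17 ILC2 surface genes that have a window 3 held it (17.6%), as did 2 of 6 recombination genes (33.3%).

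Cytokine receptors separated the groups beyond the ILC2 list. Of 22 tested, 2 were higher and 12 lower in DN2, with a median log2 difference of -2.23. Il7r, the interleukin-7 receptor on which both lineages depend, had values of 568, 503 and 299 in DN2 libraries, against 5229, 3827 and 4333 in BCL11b+ID2+ libraries and was 9.78-fold lower at an adjusted p of 9.10e-08. Il2rb, the beta chain shared by the receptors for interleukin-2 and interleukin-15, had values of 7.07, 5.99 and 7.99 in DN2 libraries, against 1175, 766 and 439 in BCL11b+ID2+ libraries and was 113-fold lower, and the common gamma chain Il2rg was 5.09-fold lower. The alpha chain of the interleukin-2 receptor, Il2ra, was the reverse, 3.39-fold higher in DN2. Cish, a feedback inhibitor of cytokine signalling, had values of 33.9, 2.0 and 0 in DN2 libraries, against 545, 733 and 462 in BCL11b+ID2+ libraries, 48.4-fold lower. Il12rb2 was higher in DN2, with values of 301, 222 and 404 in DN2 libraries, against 19.6, 11.1 and 34.3 in BCL11b+ID2+ libraries, a 14.3-fold difference.

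Genes of eicosanoid synthesis and sensing were lower for 8 of 13 tested and higher for 2. The receptors Ltb4r1, Ptgir and Ptger4 were lower, 85-fold, 16.4-fold and 2.55-fold each. The 2 that rose belong to leukotriene synthesis. Alox5ap, which encodes the 5-lipoxygenase activating protein, had values of 299.6, 112 and 100.3 in DN2 libraries, against 10.7, 9.95 and 26.4 in BCL11b+ID2+ libraries and was 10.9-fold higher, and Lta4h, leukotriene A4 hydrolase, was 2.62-fold higher.

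Of 17 tested genes of chemokine receptors, chemokines and S1pr1, 9 were lower in DN2, 1 was higher and 7 did not pass, with a median log2 difference of -4.92. The 9 include the chemokine gene Ccl5, and the receptor genes Ccr7, Cxcr5 and Cx3cr1 were among those that did not pass. Ccr9, which draws progenitors to the thymus and lymphocytes to the gut, had values of 53.7, 35.3 and 37.1 in DN2 libraries, against 1182, 2232 and 2163 in BCL11b+ID2+ libraries and was 44.2-fold lower. Ccr2 averaged 9.56 ± 5.24 in DN2 and 1512 ± 179 in BCL11b+ID2+ (SD, n = 3 each) and was 158-fold lower. Ccr4 had values of 1.41, 1.33 and 14.5 in DN2 libraries, against 192, 317 and 399.7 in BCL11b+ID2+ libraries, 52.6-fold lower. S1pr1, the receptor that lets lymphocytes leave tissues, was 45.9-fold lower, with values of 8.48, 10.7 and 11.6 in DN2 libraries, against 522, 569 and 321 in BCL11b+ID2+ libraries. None of these groups overlapped. Cxcr4 was 2.08-fold higher in DN2, with values of 839.6, 686 and 733 in DN2 libraries, against 408, 298 and 381 in BCL11b+ID2+ libraries, a call lost without BCL11b+ID2+ replicate 2 (adjusted p = 0.060).

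Integrins showed an exchange of members. Of 16 adhesion genes tested, 5 were higher and 8 lower. Itgb3, the beta 3 chain, had values of 159.7, 92.6 and 87.2 in DN2 libraries, against 4659, 6194 and 6348 in BCL11b+ID2+ libraries and was 50.7-fold lower in DN2. Itgae, the alpha chain that binds E-cadherin, had values of 31.1, 5.99 and 3.63 in DN2 libraries, against 1157, 1459 and 1681 in BCL11b+ID2+ libraries and was 106-fold lower, and its partner Itgb7 was 22.9-fold lower. Itgal and Itgb2, which form LFA-1, were 2.81-fold and 6.6-fold lower. Itga4 was 2.23-fold higher, with values of 5835, 4532 and 4402 in DN2 libraries, against 1759, 2241 and 2612 in BCL11b+ID2+ libraries, and the peptidase gene Dpp4 (CD26) 4.41-fold higher. Itga6 and Itga2b were also higher, but the number of adhesion genes that rose was 3 without DN2 replicate 1, without DN2 replicate 4, or without BCL11b+ID2+ replicate 1 or 4.

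Genes that mark other innate and unconventional lymphocytes were for the most part lower or close to 0 in DN2. Of 11 tested genes of type 3 innate lymphoid cells, 7 were lower and 0 higher, and the 7 became 5 or 6 on leaving out any library. Il23r, the interleukin-23 receptor, had values of 2.83, 0 and 0 in DN2 libraries, against 114, 81.8 and 80.5 in BCL11b+ID2+ libraries. Of 18 natural killer and ILC1 genes, 6 were lower and 2 higher. The 6 became 4 or 5 on leaving out any library, with Klri2 lost in each of those fits, and 8 in edgeR and DESeq2. The 2 that rose were the granule genes Gzma, with values of 1040.3, 853 and 1791 in DN2 libraries, against 71.2, 48.6 and 113 in BCL11b+ID2+ libraries, and Nkg7, 3.14-fold higher. The defining factors Tbx21 and Eomes and the receptor Ncr1 were at or near 0 in all 6 libraries.

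Among 11 tested gamma-delta T cell genes, 5 were lower and 1 higher in DN2. Cd163l1, a scavenger receptor gene of gamma-delta cells, had values of 35.3, 6.66 and 22.5 in DN2 libraries, against 862, 905 and 749 in BCL11b+ID2+ libraries and was 39-fold lower. The kinase gene Blk was 22.9-fold lower, and the variable segments Trdv4 and Tcrg-V6, which share sequence with related segments, had values of 0, 0 and 0 in DN2 libraries, against 62.3, 147 and 65.3 in BCL11b+ID2+ libraries for Trdv4 and 0, 0.666 and 0 in DN2 libraries, against 40.9, 29.8 and 7.91 in BCL11b+ID2+ libraries for Tcrg-V6. Of 13 genes of alpha-beta thymocytes, many of them described above, 6 were higher and 5 lower. Sox13 overlapped between the groups, with values of 107, 133 and 92.3 in DN2 libraries, against 141, 94 and 5.94 in BCL11b+ID2+ libraries.

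DNA replication and division genes were higher in DN2 in moderate steps. Of 23 tested, 15 were higher and 0 lower, with a median log2 difference of 1.03. At E15.5, a stage described below, the median of these 23 genes was -1.03, against 0.14 for all tested genes. There 8 of the 23 had a difference above 0, and 0 passed as higher and 1 as lower. Mcm6, a subunit of the replicative helicase, had values of 1502, 1699 and 1621 in DN2 libraries, against 315, 894 and 491 in BCL11b+ID2+ libraries and was 2.84-fold higher at an adjusted p of 7.77e-04. Mcm5, another subunit, had values of 481, 484 and 456 in DN2 libraries, against 207, 282 and 210.4 in BCL11b+ID2+ libraries and was 2.03-fold higher. Cdk1, the kinase of mitotic entry, had values of 249, 332 and 402 in DN2 libraries, against 207, 175 and 108 in BCL11b+ID2+ libraries and was 2.01-fold higher, a call lost in 4 of the fits without 1 library. The number higher was 9 without DN2 replicate 4, and Mki67 did not pass, with values of 2755, 2630.4 and 2368 in DN2 libraries, against 2797, 2979 and 2163 in BCL11b+ID2+ libraries and a log2 difference of -0.02 ± 0.18 (SE).

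The 250 bases before the start of Mcm5 (chr8:75109259-75109508, plus strand), Mcm6 (chr1:128359706-128359955, minus strand) and Cdk1 (chr10:69352913-69353162, minus strand) were picked because they hold the letters TTTNNCGC, which E2F factors, switches of replication genes, can bind. The motif was searched on both strands and is given in capitals, where overlapping matches run together.
Mcm5 promoter: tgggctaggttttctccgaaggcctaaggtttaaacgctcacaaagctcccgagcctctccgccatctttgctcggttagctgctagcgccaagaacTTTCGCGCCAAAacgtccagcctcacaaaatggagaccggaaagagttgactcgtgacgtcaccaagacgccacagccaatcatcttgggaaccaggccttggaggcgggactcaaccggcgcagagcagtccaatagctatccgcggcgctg
Mcm6 promoter: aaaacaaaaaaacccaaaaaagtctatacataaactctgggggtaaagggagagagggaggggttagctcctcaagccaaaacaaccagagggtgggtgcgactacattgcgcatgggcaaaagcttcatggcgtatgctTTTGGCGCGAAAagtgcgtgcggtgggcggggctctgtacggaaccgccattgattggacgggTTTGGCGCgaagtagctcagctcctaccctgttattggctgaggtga
Cdk1 promoter: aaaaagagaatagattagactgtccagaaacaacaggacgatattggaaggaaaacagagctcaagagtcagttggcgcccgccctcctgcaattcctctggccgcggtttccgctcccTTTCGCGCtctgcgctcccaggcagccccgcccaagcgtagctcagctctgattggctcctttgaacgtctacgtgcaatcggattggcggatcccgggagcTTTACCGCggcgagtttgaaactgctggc
Mcm5 holds 2 matches, which overlap, and Mcm6 holds 3, of which 2 overlap. Cdk1 holds 2. The motif was found for 4.94% of all genes with a window, 8.35% of tested genes, 10.3% of genes higher in DN2, 5.53% of genes lower and 5 of 21 replication and mitosis genes (23.8%). A match is a run of letters and not a shown binding site.

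Regulators of the G1 phase changed on both sides. Of 15 tested, 4 were higher and 4 lower. Cdk6, a kinase that opens the cell cycle, had values of 9804, 8566 and 6194 in DN2 libraries, against 1047, 1129 and 986 in BCL11b+ID2+ libraries and was 7.77-fold higher in DN2. Cdk4 was 3.18-fold higher and E2f1 3.89-fold higher, and Myc was 1.72-fold higher, a call lost in 3 of the fits without 1 library. The inhibitors Cdkn1b (p27) and Cdkn2c (p18) were 2.92-fold and 6.73-fold lower, with Cdkn1b at values of 130.04, 142 and 225 in DN2 libraries, against 438, 407 and 606 in BCL11b+ID2+ libraries. The inhibitors Cdkn1a and Cdkn2d did not pass. Cdkn1a had the higher mean in DN2, at 327 ± 48.1, against 114 ± 65.2 in BCL11b+ID2+ (SD, n = 3 each). The cyclin gene Ccnd2 was 2.36-fold lower.

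Antigen presentation genes were lower in DN2, with 8 of 11 tested genes lower and 0 higher. B2m, the light chain of MHC class I, had values of 5395, 4706 and 3698 in DN2 libraries, against 18822, 18939.6 and 17086 in BCL11b+ID2+ libraries and was 3.97-fold lower at an adjusted p of 2.83e-11. The class I heavy chains H2-K1 and H2-D1 were 8.93-fold and 10.9-fold lower, with H2-K1 at values of 315, 401 and 336 in DN2 libraries, against 2869.9, 3206 and 3328 in BCL11b+ID2+ libraries, and related class I copies may share their reads. Their regulator Nlrc5 was 14-fold lower. The class II genes H2-Aa and Cd74 were at or near 0 in DN2, with values of 0, 0 and 0 in DN2 libraries, against 90.8, 50.9 and 39.6 in BCL11b+ID2+ libraries for H2-Aa and 0, 0 and 2.18 in DN2 libraries, against 126, 47.5 and 133 in BCL11b+ID2+ libraries for Cd74. Macrophages also carry class II genes, and the part of the macrophage markers given above in this was not tested.

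Immediate early genes, which respond to stimulation and to cell handling, were lower for 7 of 12 tested and higher for 0. Zfp36, an RNA-binding protein gene, had values of 29.7, 95.2 and 27.6 in DN2 libraries, against 1429.6, 2846 and 1349 in BCL11b+ID2+ libraries and was 36.9-fold lower in DN2. Dusp1 had values of 110.2, 192 and 118 in DN2 libraries, against 643, 1219 and 1326 in BCL11b+ID2+ libraries, 7.58-fold lower, and Egr1 11.3, 77.9 and 55.2 in DN2 libraries, against 552, 844 and 485 in BCL11b+ID2+ libraries, 13-fold lower. Fos was lower too, with values of 1.41, 58.6 and 66.9 in DN2 libraries, against 119, 509 and 373 in BCL11b+ID2+ libraries, but its call was lost without DN2 replicate 1 (adjusted p = 0.058). Whether handling differed between the groups is not given in the labels, and its part was not tested.

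Of 9 apoptosis regulators tested, 3 were lower and 0 higher. Bcl2l11, which encodes the killer protein BIM, had values of 79.2, 129.9 and 95.9 in DN2 libraries, against 855, 535 and 454 in BCL11b+ID2+ libraries and was 6.05-fold lower, Bbc3 (PUMA) was at least 23-fold lower and the survival gene Mcl1 2.09-fold lower. Bcl2 did not pass, with values of 708, 499 and 651 in DN2 libraries, against 1346, 679 and 806 in BCL11b+ID2+ libraries. Of 15 glycolysis genes 3 were lower, namely Pfkp, Aldoa and Eno1 with falls of 4.34-fold, 1.82-fold and 2.58-fold, and 12 did not pass. Interferon-stimulated genes were lower for 3 of 13, among them Irf7 at 4.11-fold and Ifit1 at 10.1-fold lower. In edgeR and DESeq2, among other settings, 1 gene of the interferon list was higher. Over all tested genes 19.1% were called, with 11.7% lower in DN2. The glycolysis, interferon and mitochondrial counts lie near these shares and are a description only. Of the mitochondrially encoded genes 2 of 10 were lower, mt-Nd6 1.83-fold and mt-Co1 1.55-fold, and mt-Co1 lost its call when values were scaled to the total without mitochondrial genes (adjusted p = 0.089), without the filter (0.057), without DN2 replicate 1 (0.051) and without BCL11b+ID2+ replicate 4 (0.063), which leaves 1 gene.

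Of 10 tested genes of the TNF receptor superfamily and its ligands 5 were lower, among them Tnfrsf25 and Ltb, and 0 higher, with 3 lower without DN2 replicate 2 or 4 or BCL11b+ID2+ replicate 2. Of 8 GIMAP genes, small GTPases of lymphocytes, 2 were lower, Gimap3 and Gimap4. Over all tested genes 19.1% were called, with 11.7% lower in DN2, and the GIMAP count is a description only.

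Markers of further cell types were mixed. Of 10 tested mast cell and erythroid markers 1 was higher and 5 lower, and that 5 was 1 to 2 on leaving out any library other than BCL11b+ID2+ replicate 1. Of 6 monocyte and granulocyte markers 1 was higher and 1 lower, and of 6 epithelial and stromal markers also 1 and 1, the lower one being Epcam, which held its call only without DN2 replicate 2 among those fits. Cpa3, a carboxypeptidase gene of mast cells and early progenitors, was higher in DN2, with values of 801, 717 and 932 in DN2 libraries, against 40.9, 35.4 and 9.23 in BCL11b+ID2+ libraries, a 28.6-fold difference, but the mast cell genes Ms4a2, Tpsb2, Mcpt4 and Fcer1a had at most 2.83 in any DN2 library. Mpo, the myeloperoxidase gene, had values of 274, 158 and 145 in DN2 libraries, against 0, 3.32 and 0.659 in BCL11b+ID2+ libraries and was higher in DN2, while Elane and Prtn3 were at 0 in all 6 libraries. Pdgfrb, a receptor of stromal cells, had values of 457, 341 and 439 in DN2 libraries, against 14.2, 11.1 and 7.25 in BCL11b+ID2+ libraries and was higher in DN2, while the collagen genes Col1a1, Col1a2 and Col3a1 were at 0 in DN2. The summed B-lineage list was 82.6 to 143 in DN2 and 135 to 183 in BCL11b+ID2+, with Pax5 and Ebf1 at 0, and 0 of its 6 tested genes passed. Of 8 tested dendritic cell markers 2 were lower, Cd74 and Xcr1, and 6 did not pass. The list summed to 19.8 to 29.3 in DN2 and 220 to 242 in BCL11b+ID2+, and Itgax and Flt3, which did not pass, averaged 6.65 and 4.55 in DN2, against 2.5 and 2.37 in BCL11b+ID2+. Xcr1 had values of 0, 0 and 0 in DN2 libraries, against 30.3, 128 and 56.7 in BCL11b+ID2+ libraries. Over all tested genes, 7.4% were called higher and 11.7% lower in DN2. The monocyte and granulocyte, epithelial and stromal, and dendritic counts rest on few genes and are a description only. The plot of gene lists sets the lists side by side.

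**Figure D3:**
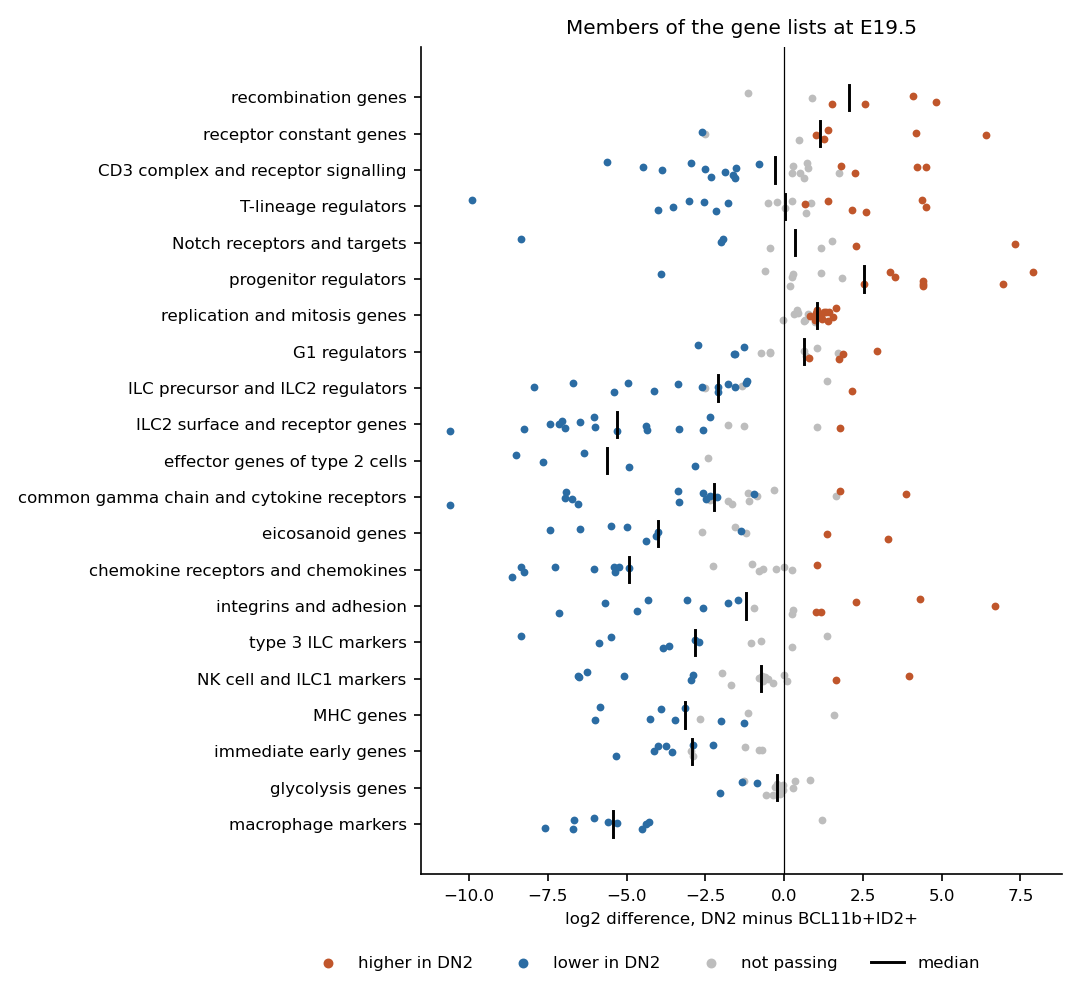
Log2 difference between DN2 and BCL11b+ID2+ cells (horizontal axis) for each tested member of 21 gene lists (rows), with orange points higher in DN2, blue points lower, grey points not passing and a black bar at each median. Lists of recombination and progenitor genes lie to the right, with medians of 2.05 and 2.53, and those of ILC2 surface genes and chemokine receptors to the left, with medians of -5.31 and -4.92. The row of ILC precursor and ILC2 regulators includes the sorting gene Id2, which the counts in the text leave out.

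The other 4 populations of the stage place these differences. Of the 1619 genes lower in DN2, 43.7% had their highest mean of the 6 populations in BCL11b+ID2+ cells and 28.5% in BCL11b-ID2+ cells, and 70.3% had their lowest mean in DN2. Over all tested genes, DN2 was lowest for 22%. Of the 1024 genes higher in DN2, 62.3% were highest in DN2 and 21.9% in BCL11b-ID2- cells, against 19.1% and 15% of all tested genes. These shares follow in part from the call itself and are a description. The colour map of selected genes shows single cases.

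Some of the fallen genes were seen in other DN1 populations and some were not. Il1rl1 averaged 1.9 in DN2, 3624 in BCL11b+ID2+ and 132 in BCL11b-ID2+ cells, with at most 44.7 in the other 3 populations. Ikzf3 averaged 3.67 in DN2 and 4385 in BCL11b+ID2+, was next lowest in BCL11b-ID2- cells (58.8), and was at 1314 or more in the other 3. Ccr9 was highest in BCL11b+ID2- cells, at 8967, against 42 in DN2 and 1859 in BCL11b+ID2+. Erg averaged 352 in DN2, 0.593 in BCL11b+ID2+ and 642 in BCL11b-ID2- cells, and Ptcra 62.6 in DN2 and at most 5.38 in the other 5 populations.

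**Figure D4:**
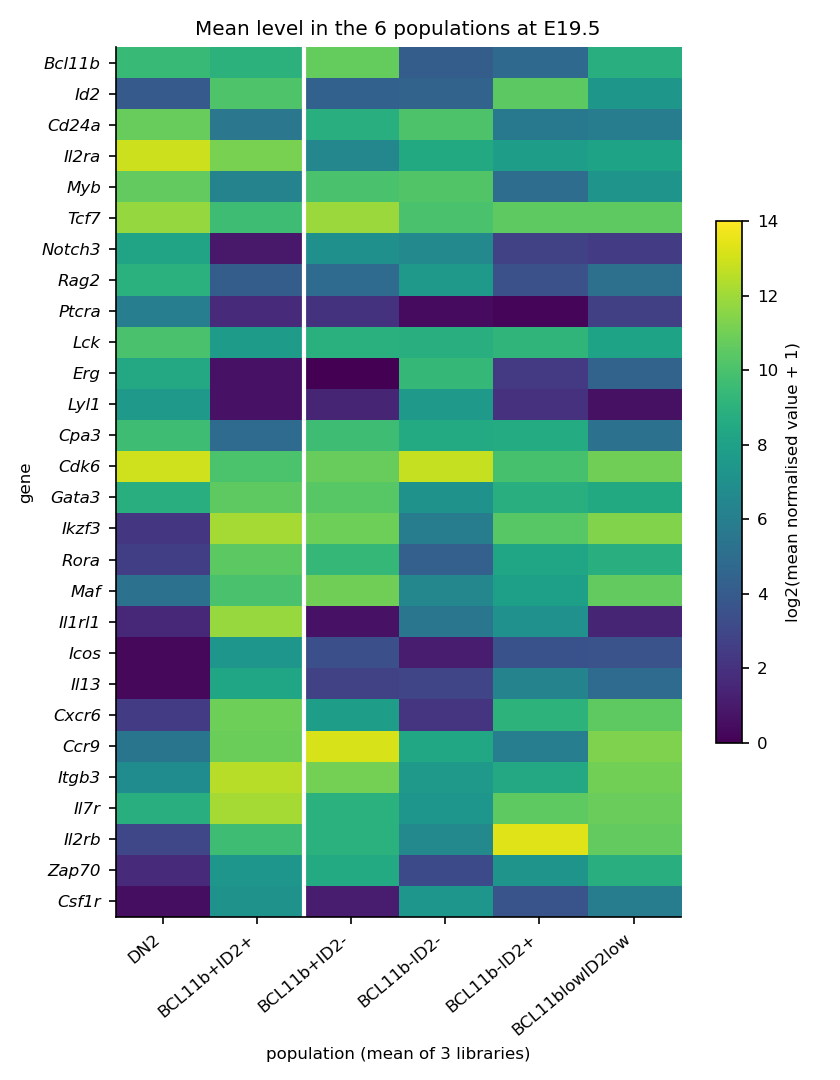
Mean normalised value of selected genes (rows) in the 6 populations of E19.5 (columns, 3 libraries each), as log2(mean + 1) by colour, with DN2 and BCL11b+ID2+ left of the white line. Il1rl1 is brightest in BCL11b+ID2+ cells, and Ikzf3 and Rora are darkest in DN2 and next darkest in BCL11b-ID2- cells.

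The same contrast was made at E15.5, in other libraries and a table normalised separately, with 2 DN2 and 3 BCL11b+ID2+ libraries. The columns of that table carry bare numbers, which were matched to the barcode numbers in the labels, and every E15.5 value rests on this match. There 68 of 10289 tested genes passed (0.661%), 21 higher (0.204%) and 47 lower (0.457%) in DN2, with 1334 at an unadjusted p under 0.05. The groups did not overlap for 23.4% of genes, with DN2 above for 13.3% and below for 10.1%. The count of 68 was 1150 in DESeq2 and 1 in a fit of the compared groups alone, and it was 10 without DN2 replicate 2, 30 without DN2 replicate 1 and 31 without BCL11b+ID2+ replicate 1 or 3. Without a DN2 library the remaining one is assumed to vary like the libraries of the other groups. Of the genes higher in DN2 at E19.5, 858 were tested at E15.5 and 619 (72.1%) had the same sign, and of those lower, 926 of 1209 (76.6%) did. Over all 9935 genes tested at both stages 52.0% were higher in DN2 at E15.5. Of the 21 and 47 genes called at E15.5, 18 (85.7%) and 40 (85.1%) were called the same way at E19.5, which is 2.1% and 3.31% of the E19.5 genes tested at both, and 0 genes were called in opposite directions.

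Genes called at both stages included several of those described above. Myb had values at E15.5 of 9487 and 6628 in DN2 libraries, against 14, 1226 and 55.6 in BCL11b+ID2+ libraries, a log2 difference of 6.29 (adjusted p = 0.00794) beside 4.49 at E19.5. Ikzf3 had values at E15.5 of 33.5 and 40.4 in DN2 libraries, against 24131, 26845 and 57545 in BCL11b+ID2+ libraries, a log2 difference of -9.79 beside -9.92 at E19.5. Rora differed by -9.51 at E15.5 and -7.92 at E19.5. Itgb3, Ccr2, Cxcr6, Maf, Il18r1, Lmo4, Itgae, Jag1 and Cd200r1 were also lower at both stages, and Rag2, Cd24a, Il2ra, Erg, Esm1, Khdc1a, Cpa3, Il12rb2 and Cxcr4 higher at both. Mki67 passed at E15.5 alone, with 17092 and 6358 in DN2 libraries, against 38366, 29318 and 55937 in BCL11b+ID2+ libraries, a log2 difference of -1.93. The plot of both stages sets these differences side by side, and the stages were not tested against each other.

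**Figure D5:**
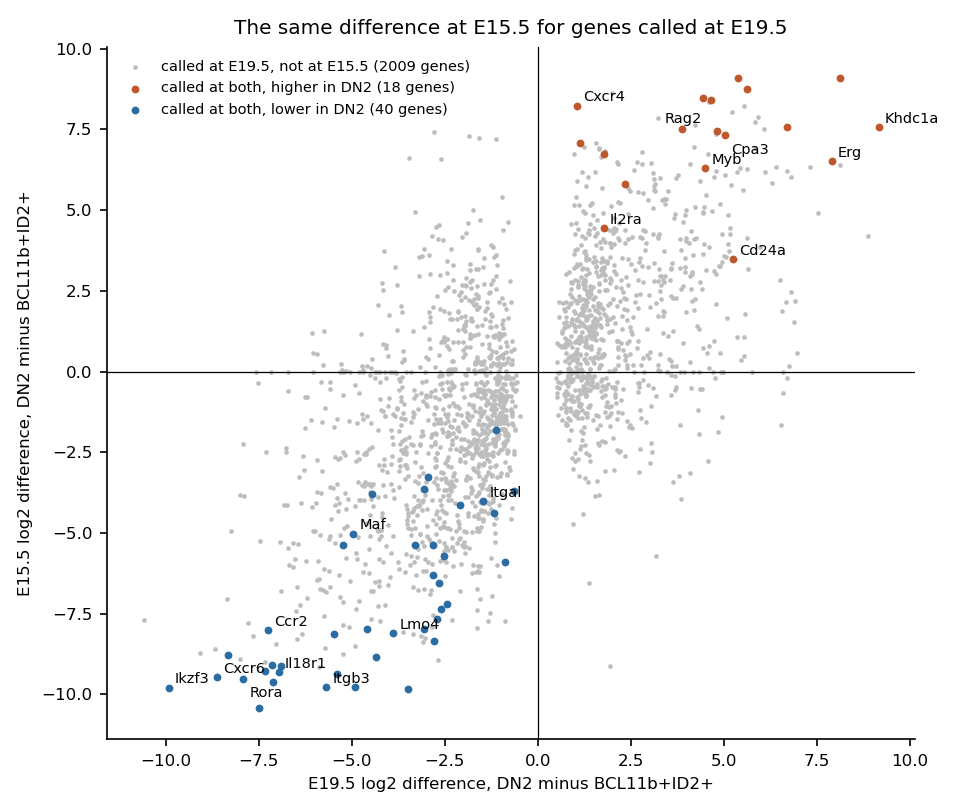
Log2 difference between DN2 and BCL11b+ID2+ cells at E15.5 (vertical axis) against that at E19.5 (horizontal axis) for the genes called at E19.5 and tested at both stages. Grey points (2009) did not pass at E15.5, orange points (18) were higher in DN2 at both stages and blue points (40) lower at both.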

How the data were processed

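Bulk RNA-seq was made from sorted thymus cells with the RNeasy Plus micro kit and the Ovation RNA-seq System V2, per the labels' protocols. Reads were trimmed with Trim Galore 0.50, aligned with STAR 2.6.0a to GRCm38 and normalised with DESeq2 1.18.1, per the submitters' processing notes. The values used are the signal that the authors deposited, read counts per gene divided by size factors, in 1 table for each stage. The counting tool, its annotation and its use of strand are not given in the sources used here. These values are not divided by gene length, so levels are compared within a gene only. Dividing each library by its smallest step gave whole reads for 100% of values within 0.01 reads, and depths are sums of these reads.

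Genes that reached a value of 10 in 3 or more libraries of their stage were tested with limma 3.58.1 in R 4.3.3 on log2(value + 1), with trend and robust options, a group mean model over all libraries of the stage and Benjamini-Hochberg adjusted p-values, called at 0.05. Log2 differences on this scale are smaller than the true ones for genes with few reads. Folds are ratios of group means. With no reads in a group they are lower bounds from a floor of 3 reads over the group, and with 1 to 3 reads they carry a 95% interval that covers counting error only. Errors are SD over libraries or SE of the fit. Genes were named by rank among those called without overlap whose higher group averaged 100 or more (15 in each direction, leaving out predicted, mitochondrial, ribosomal and receptor V and J genes), or as members of 36 gene lists. The comparison and the lists were chosen with earlier results of these data known. Alternatives were edgeR 4.0.16 and DESeq2 1.42.0 on the recovered reads, other pseudocounts, filters and scalings, library weights, a replicate block, a fit of the compared groups alone and the omission of each library. Some results are not reported here. The fitting script was tested on simulated data with known changes. Symbols came from GENCODE vM21 for all but 13 of the E19.5 gene IDs, and promoter windows of 250 bases from RefSeq on GRCm38.p6.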

Additional observations from a re-analysis of the deposited data

How the results depend on the processing

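At E19.5 the count of 2643 genes stayed within 1.5 times under every alternative run, from 2058 without BCL11b+ID2+ replicate 1 to 3008 with library weights. It was 2374 in edgeR, 2842 in DESeq2 and 2058 to 2287 on leaving out 1 library. With a filter at 50 it was 2257 of 8932 tested genes. Calls shared with edgeR numbered 2289. Of 239 called genes that were ranked or on a list, 192 kept their call under every alternative, 45 lost it in at least 1 fit without a library and 0 reversed. The E15.5 count of 68 depended on the setting, at 33 without the filter, 1150 in DESeq2, 1 with only the groups compared, 34 with library weights and 10 to 76 on leaving out 1 library; the cause was not tested. The replicate block gave 2980 calls at E19.5 and 36 at E15.5. Whether the numbers pair the libraries is not settled here, and the main fit used no pairing. Same-numbered E19.5 libraries correlated weakly, at 0.099, 0.024 and 0.099, yet each E19.5 library correlated best with its own number. Same-numbered E15.5 libraries correlated at 0.018 and 0.013. With 2 DN2 libraries at E15.5 the deviations mirror each other, so those values cannot show pairing. Counts of glycolysis genes lower in DN2 were 3, and 5 with the block or only the groups compared. With 3 libraries a group and 3111749 to 9178293 reads, a difference that did not pass is not shown to be absent, and low genes rest on few reads.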

Other observations

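Some genes that met no naming rule passed at both stages and are named here after their values were seen. Dnajc6, which encodes the uncoating cochaperone auxilin, was higher in DN2, with log2 differences of 5.62 at E19.5 and 8.76 at E15.5. Gpr174, a G protein-coupled receptor gene, was higher by 4.65 and 8.40, and the ribosome assembly gene Wdr12 by 1.76 and 6.73. Foxo1, a regulator of lymphocyte homing and survival genes, was lower in DN2, with log2 differences of -4.59 at E19.5 and -7.98 at E15.5. Klf7 differed by -4.36 and -8.85, Ahnak, a large scaffold protein gene, by -7.34 and -9.28, and the vimentin gene Vim by -2.09 and -4.15. The 2 stages were normalised separately and were not tested against each other.

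DN2 libraries varied in a few T-lineage genes. Replicate 2 was the highest of the 3 in Bcl11b, Ptcra, Rag1, Cd3e and Dtx1, in the values given above. No library of these groups was tested as an outlier, since groups of 3 are too small for that.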
